A study of Homo sapiens with 54 samples.

Results

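Macrophages carry inhibitory receptors that read "do not eat me" signals on the cells they touch. Described here are 6 genes of that system, chosen by name: the signal CD47 and the receptors SIRPA, SIGLEC10, LILRB1, LILRB2 and LILRB4. They were followed through 11 groups of bulk RNA libraries and 3 single-cell RNA libraries of macrophage cultures grown from H1, an established human embryonic stem cell line. The bulk table held all 6 among its 58735 genes, each under 1 identifier, and the single-cell matrices held all 6 among 36601 genes. The name of the set fits the files only in part, because LILRB4 was listed at 0 in 29 of the 32 bulk libraries and LILRB1 never passed 3.36 TPM, a transcript level scaled for gene length and for the library.

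The series holds 54 samples, of which 32 bulk RNA libraries and 3 single-cell libraries were used and 19 chromatin libraries were not analysed here. All cells carry the label H1 and macrophage, with no genetic change named, so the line is a single genetic background. The bulk groups are 3D E. coli (2 libraries), 3D SP14 (2), 3D SP6A (2), 3D days 16, 19 and 23 with FBS in the title (3 each), the same 3 days without it (3 each), 3D day 12 (4) and 2D day 12 (4). FBS usually stands for fetal bovine serum. 3D means differentiation in a porous niche, according to the series text, and 2D is the flat culture set against it. The labels give SP6A and SP14 in place of a time point without saying what they are, and give no time, dose or mode of exposure for E. coli. They also do not say whether the libraries of a group came from separate cultures, so the spread between them may be technical.

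CD47 is a membrane protein of nearly all cells, and its binding to SIRPA on a macrophage puts phosphates on the inhibitory tails of SIRPA. Those tails recruit the phosphatases PTPN6 and PTPN11, which dampen the kinase signals that drive engulfment. SIGLEC10 reads sialylated proteins such as CD24 and CD52 in the same inhibitory way. LILRB1 and LILRB2 bind HLA class I molecules, whose light chain is B2M, while LILRB4 has been tied to APOE and fibronectin. Macrophages are among the cells that carry SIRPA and most of the LILRB receptors, and CD47 is spread over blood and non-blood cells alike.

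CD47 (ENSG00000196776) lies on chromosome 3 at 108043091 to 108091031 and SIRPA (ENSG00000198053) on chromosome 20 at 1894167 to 1940592 of GRCh38.p14. The other 4 genes lie on chromosome 19: SIGLEC10 (ENSG00000142512) at 51410020 to 51417642, LILRB2 (ENSG00000131042) at 54273812 to 54281110, LILRB1 (ENSG00000104972) at 54616322 to 54638022 and LILRB4 (ENSG00000186818) at 54662985 to 54668718. RefSeq start windows of 300 bases, 250 before to 50 after the start, were at hand for 5 of the 6 members on the same build. They are shown as a description, and any link to the members' levels or to the cell types that held them was not tested. SIRPA had no window, so CD47 cannot be set beside its receptor here. LILRB1 and LILRB2 are close copies that short reads may not separate, a question that start windows do not address. Each is printed 5′ to 3′ along the gene's strand, with GGGCGG (the GC box) and GGAAGT (an ETS core) in capitals wherever they occur on either strand. CD47 is chr3:108090982-108091281, minus strand. SIGLEC10 is chr19:51417593-51417892, minus strand. LILRB2 is chr19:54281061-54281360, minus strand, the outermost of its 3 windows. LILRB1 is chr19:54630234-54630533, plus strand, the one of its 3 windows most like that of LILRB2. LILRB4 is chr19:54662735-54663034, plus strand.
CD47: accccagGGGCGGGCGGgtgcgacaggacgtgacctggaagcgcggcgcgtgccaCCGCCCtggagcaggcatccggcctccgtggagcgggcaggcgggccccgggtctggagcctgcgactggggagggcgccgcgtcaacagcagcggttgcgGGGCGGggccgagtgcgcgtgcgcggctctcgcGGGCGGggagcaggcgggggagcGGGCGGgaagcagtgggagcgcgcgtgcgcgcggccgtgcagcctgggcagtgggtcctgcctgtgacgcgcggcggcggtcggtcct
SIGLEC10: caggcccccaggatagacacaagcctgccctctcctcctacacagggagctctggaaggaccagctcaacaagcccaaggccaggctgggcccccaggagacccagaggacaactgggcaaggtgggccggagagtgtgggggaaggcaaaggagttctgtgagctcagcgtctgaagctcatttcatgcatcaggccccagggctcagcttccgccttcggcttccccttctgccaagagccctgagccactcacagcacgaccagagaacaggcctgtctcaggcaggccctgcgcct
LILRB2: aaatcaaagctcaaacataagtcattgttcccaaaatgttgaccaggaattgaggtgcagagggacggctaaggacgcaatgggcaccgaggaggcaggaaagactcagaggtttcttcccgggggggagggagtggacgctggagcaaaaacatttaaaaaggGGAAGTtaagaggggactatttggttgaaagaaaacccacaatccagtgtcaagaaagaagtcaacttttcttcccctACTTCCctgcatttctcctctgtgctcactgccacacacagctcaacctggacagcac
LILRB1: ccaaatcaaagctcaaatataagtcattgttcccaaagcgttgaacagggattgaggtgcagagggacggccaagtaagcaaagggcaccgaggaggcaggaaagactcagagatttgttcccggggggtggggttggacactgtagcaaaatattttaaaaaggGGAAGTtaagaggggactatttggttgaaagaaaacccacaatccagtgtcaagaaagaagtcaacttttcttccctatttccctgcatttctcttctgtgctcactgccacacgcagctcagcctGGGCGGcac
LILRB4: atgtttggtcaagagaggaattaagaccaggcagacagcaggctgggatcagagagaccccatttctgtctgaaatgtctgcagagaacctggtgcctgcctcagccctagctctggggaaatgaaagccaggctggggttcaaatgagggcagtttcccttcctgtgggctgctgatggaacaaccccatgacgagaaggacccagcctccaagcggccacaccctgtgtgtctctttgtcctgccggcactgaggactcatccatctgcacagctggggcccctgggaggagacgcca

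The CD47 window stood apart in composition from the other windows shown. It held 45 CpG pairs and 79.0% G or C, and 96.5% of the 35116 windows of the table held fewer CpG pairs. The median window held 14 CpG pairs. The SIGLEC10 window held 6 (63.0% G or C), that of LILRB2 5 (48.7%), that of LILRB1 6 (48.0%) and that of LILRB4 4 (57.3%). CD47 had 6 GC box matches, 5 on the gene strand and 1 on the other. A GC box was found in 45.0% of all windows. The LILRB2 window had 2 ETS core matches, 86 bases before the start on the gene strand and 8 bases before it on the other strand. LILRB1 had 1 ETS core match, 85 bases before its start, and 1 GC box match after it. An ETS core was found in 22.8% of all windows. Neither motif occurred in the SIGLEC10 and LILRB4 windows. The LILRB2 and LILRB1 windows could be aligned over 298 bases, of which 273 were identical (91.6%), with 2 bases in gaps. This LILRB1 window was picked for its likeness. The LILRB1 windows starting at 54630267 and 54616879 aligned with that of LILRB2 over 267 bases (91.0% identical) and 62 bases (66.1%).

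No source used here gives the bulk libraries' read totals, and TPM keep no depth. The number of genes at 1 TPM or more averaged 8029 in the E. coli group and 11893 to 13140 in the other groups. The 2 E. coli libraries stood apart: they correlated at 0.657 with each other on the log2 scale, against 0.891 to 0.968 between replicates elsewhere, and 21.2% of their TPM came from mitochondrial genes. All 12 macrophage markers were detected in every group, which does not give the share of macrophages among the cells. In 2D day 12 the macrophage markers summed to 3227 to 3631 TPM, below the 7948 to 9730 TPM of the 8 monocyte markers. Markers of other cells were present too, and in bulk RNA fewer cells of a type and less RNA per cell cannot be told apart. Differences are given as log2 changes of TPM plus 1 from limma, with p-values adjusted by Benjamini-Hochberg over all genes of a fit and a threshold of 0.05. Because 1 is added, they understate the change of low genes. Where libraries of 2 groups are said not to overlap, this describes the values only. The share of all genes without overlap is not given here, so such separation does not mark a gene out.

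CD47 was detected in all 32 libraries, from 7.09 to 98.5 TPM. Its group means ran from 86.1 TPM in SP14 and 75.4 TPM in SP6A at the top to 24.0 TPM in 2D day 12 at the bottom, a ratio of 3.59. The SP14 libraries lay above both SP6A libraries, which lay above all 3 libraries of day 16. Below that, each group's libraries overlapped those of the next group in the order.

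SIRPA was also detected in all 32 libraries, from 20.6 to 157 TPM. Its order began with SP14 (mean 146 TPM), SP6A (124 TPM), day 23 with FBS (94.5 TPM) and day 16 without FBS (83.8 TPM), and none of these neighbours overlapped. The libraries of day 16 also lay above those of day 19, and from there down to 2D day 12 (32.7 TPM) each group overlapped the next. The ratio of the highest to the lowest group mean was 4.46.

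SIGLEC10 was the least abundant of the 4 genes that could be tested, on the TPM scale that allows for length, and it varied most between groups. Its group means ran from 35.7 TPM in SP14 to 3.41 TPM in E. coli, a ratio of 10.48. LILRB2 varied least, from 119 TPM in SP14 to 47.3 TPM in 2D day 12, a ratio of 2.51. In both orders most neighbouring groups overlapped. The SP14 group had the highest mean for each of the 4 genes.

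LILRB1 was above 0 in 22 of 32 libraries, with group means from 0 TPM at day 19 with FBS to 2.21 TPM at day 16 without it. LILRB4 was above 0 in 3 libraries: 0.18 and 0.64 TPM in SP6A, and 0.69 TPM in 1 of the 2 SP14 libraries. Neither reached the mean of 1 TPM that a fit required, so 4 of the 6 members were tested. LILRB1 is an inhibitory receptor for HLA class I like LILRB2, and its antisense gene LILRB1-AS1 is listed too; no source used here says whether counting used strand. A 0 in this table means only that the gene is listed at 0.

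The first comparison sets 3D against 2D culture at day 12, the contrast named in the series text. CD47, SIGLEC10 and LILRB2 rose in 3D, and SIRPA, the receptor of CD47, did not pass the test. Of the 4 tested members 3 rose and 0 fell. Over all 13131 genes tested, 37.8% were called, 13.0% up and 24.7% down. With median-ratio scaling 2376 genes rose and 2553 fell, where the deposited scale gave 1710 and 3249.

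CD47 had 56.8, 39.7, 61.0 and 61.6 TPM in 3D libraries, against 22.5, 35.5, 16.2 and 21.8 TPM in 2D libraries. Every 3D library lay above every 2D library. The log2 change was 1.19 (SE 0.26, adjusted p 0.0082), where the median of all genes was -0.21. SIGLEC10, the sialic acid reader, had 6.87, 7.12, 10.8 and 10.95 TPM in 3D, against 3.64, 3.19, 4.44 and 4.90 TPM in 2D. Again the groups did not overlap. Its log2 change was 0.96 (SE 0.21, adjusted p 0.0085).

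LILRB2, the receptor for HLA class I, had 70.4, 106, 91.1 and 70.9 TPM in 3D libraries, against 35.2, 53.7, 47.8 and 52.7 TPM in 2D libraries. The groups stood apart, with a log2 change of 0.82 (SE 0.21, adjusted p 0.0165). SIRPA had 46.3, 44.9, 45.9 and 20.6 TPM in 3D, against 31.6, 33.4, 32.5 and 33.1 TPM in 2D. In 3D 3 libraries lay above all of 2D and the replicate 4 library lay below all of it. The log2 change of SIRPA was 0.19, with a 95% interval of -0.42 to 0.81 (adjusted p 0.60). Without replicate 4 of 3D it was 0.47 (adjusted p 0.036).

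LILRB1 was listed at 0.44, 0.39, 0.64 and 0.50 TPM in 3D libraries, against 0, 0.06, 0 and 0.06 TPM in 2D libraries. All of these are low, although the 2 groups do not overlap. Without the filter on level LILRB1 passed (log2 change 0.53, adjusted p 0.0058). LILRB4 was listed at 0 in all 8 libraries.

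**Figure D1:**
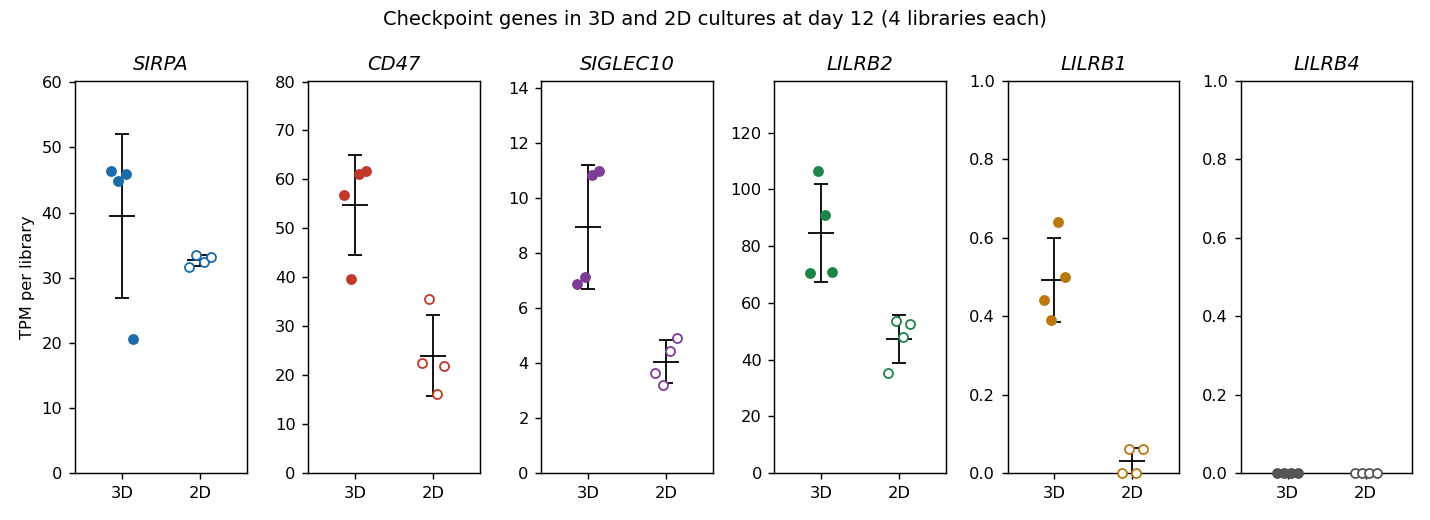
TPM of the 6 genes in each library of 3D (filled, left) and 2D (open, right) culture at day 12, 4 libraries each; bars give mean and SD, and each panel has its own axis starting at 0. CD47, SIGLEC10, LILRB2 and LILRB1 do not overlap between the groups, 1 SIRPA library of 3D lies at 20.6 TPM, and LILRB4 is at 0. The share of all genes without overlap is not given.

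The relatives of these receptors did not all follow. Of 4 tested SIRP genes 1 fell: SIRPB1, which pairs with activating adaptors in place of inhibitory tails, had a log2 change of -1.09 (adjusted p 0.0070). SIRPA and SIRPB1 are near-identical in their outer parts, so how reads were shared between them is uncertain. Of 6 tested LILR genes LILRB2 alone passed. Of 12 tested SIGLEC genes 4 rose and 2 fell, among them SIGLEC5 (1.63, adjusted p 0.0013) and SIGLEC9 (0.97, adjusted p 0.0068) upward and SIGLEC16 (-2.07, adjusted p 0.00016) downward. SIGLEC5 shares near-identical stretches with SIGLEC14, and SIGLEC16 with SIGLEC11.

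The ligands of the checkpoints went mostly the other way from CD47 in the same comparison. Of 12 tested ligand genes 2 rose, CD47 among them, and 8 fell, with a median log2 change of -0.91. The list of ligands holds CD47 itself, here and in the comparisons below. CD52, a SIGLEC10 ligand, averaged 456 TPM in 3D and 1564 TPM in 2D (log2 change -1.78, adjusted p 0.00011). The HLA class I heavy chain HLA-B averaged 75.6 TPM in 3D and 333 TPM in 2D (-2.13, adjusted p 0.00018). APOE also fell (-2.92, adjusted p 0.00018).

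Below the receptors, 0 of 8 phosphatases and adaptors rose and 4 fell, among them the lipid phosphatase INPP5D (-1.11, adjusted p 0.0013) and the kinase PTK2B (-1.29, adjusted p 0.00097). Of 7 kinases and activating adaptors 2 rose, namely LYN (1.17, adjusted p 0.0041) and FCER1G (1.61, adjusted p 0.00022), and FGR fell (-1.74, adjusted p 0.00081). Of 15 other inhibitory receptors of myeloid cells 2 rose, VSIG4 (1.11, adjusted p 0.0025) and LAIR1 (0.91, adjusted p 0.0031), and 5 fell. Of 8 genes that promote engulfment 2 rose and 4 fell, with CALR, the surface "eat me" signal, at -2.31 (adjusted p 0.0015). QPCTL, which forms the pyroglutamate at the N-terminus of CD47 that SIRPA binds, was tested and was not called.

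Markers of several cell types moved with the same contrast. The 12 macrophage markers summed to 3975 to 6338 TPM in 3D against 3227 to 3631 TPM in 2D, with none at 0 in either. The 8 monocyte markers summed to 4528 to 6480 TPM in 3D against 7948 to 9730 TPM in 2D, also with none at 0. The 10 megakaryocyte markers summed to 15.3 to 39.4 TPM in 3D, where GP1BA was at 0, against 711 to 1252 TPM in 2D. The 8 granulocyte progenitor markers summed to 47.0 to 175 TPM in 3D, with ELANE and LTF at 0, against 1451 to 2824 TPM in 2D, with none at 0. The 12 erythroid markers summed to 27.7 to 1719 TPM in 3D, with HBB at 0, against 3427 to 4409 TPM in 2D, with AHSP at 0. Their part in the differences above was not tested.

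Within 3D culture without FBS, days 16, 19 and 23 were each set against day 12, and these 3 comparisons share the 4 day 12 libraries. SIRPA rose at days 16 and 23, while CD47 and LILRB2 passed at none of the 3 days. SIGLEC10 was higher at all 3 days in every library but did not pass. The members called were 1 of 4 at day 16, 0 of 4 at day 19 and 1 of 4 at day 23, beside 16.6%, 11.8% and 25.6% of all 13384 genes tested. Upward calls made up 10.3%, 6.37% and 10.5% of all genes, and downward calls 6.25%, 5.39% and 15.1%.

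SIRPA had 80.6, 79.8 and 91.0 TPM at day 16, 73.6, 60.2 and 61.8 TPM at day 19 and 69.4, 64.1 and 62.1 TPM at day 23. All of these lie above the 4 day 12 libraries, the highest of which had 46.3 TPM. The log2 change was 1.14 at day 16 (SE 0.27, adjusted p 0.0054), 0.78 at day 19 (adjusted p 0.069) and 0.78 at day 23 (adjusted p 0.039). The call at day 23 rests on the low day 12 library: without it the change was 0.50 (adjusted p 0.148). It was also lost without any one of the 3 day 23 libraries (adjusted p 0.077 to 0.1098).

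SIGLEC10 had 17.3, 19.1 and 28.8 TPM at day 16, 41.7, 19.5 and 16.03 TPM at day 19 and 29.5, 18.6 and 19.4 TPM at day 23. Each value exceeded the day 12 maximum of 10.95 TPM. The log2 changes were 1.19, 1.34 and 1.24, with adjusted p 0.093, 0.071 and 0.058. All 3 passed when the E. coli libraries were left out of the fit (adjusted p 0.0082, 0.0045 and 0.0043).

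CD47 had 71.1, 69.4 and 71.4 TPM at day 16, 98.5, 61.1 and 45.5 TPM at day 19 and 49.7, 23.3 and 42.2 TPM at day 23. Day 16 was tight and lay above day 12, whereas days 19 and 23 overlapped it. The log2 changes were 0.38 (95% interval -0.58 to 1.35), 0.26 (-0.70 to 1.23) and -0.55 (-1.51 to 0.42). LILRB2 had 110.5, 95.8 and 128 TPM at day 16, 60.5, 60.1 and 58.8 TPM at day 19 and 67.1, 86.2 and 74.9 TPM at day 23. The 3 day 19 libraries agreed closely and lay below all 4 day 12 libraries. The log2 changes of LILRB2 were 0.40 (-0.07 to 0.88), -0.47 (-0.95 to 0.0015) and -0.14 (-0.61 to 0.34). LILRB1 had 1.51, 3.36 and 1.75 TPM at day 16, the highest group mean of the 11 bulk groups.

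Among the close relatives LILRB5 moved further than any member. LILRB5, an inhibitory receptor of the same family, averaged 80.3 TPM at day 16, against 3.50 TPM at day 12 (log2 change 4.21, adjusted p 1.5e-10). It also rose at day 19 (3.33, adjusted p 3.7e-09) and day 23 (1.62, adjusted p 3.0e-05). Of 5 tested LILR genes 2 rose at day 16, 2 rose at day 19, and at day 23 1 rose and 1 fell. Of 4 SIRP genes 2 rose at day 16 (SIRPA and SIRPB2), 1 at day 19, and at day 23 1 rose and 1 fell. Of 12 SIGLEC genes, day 16 saw 2 rise and 1 fall, day 19 saw 2 rise, and day 23 saw 1 rise and 5 fall. SIGLEC1, which lacks an inhibitory tail, rose at day 16 (1.67, adjusted p 2.3e-05).

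Among the ligands, HLA-B rose at day 16 (2.11, adjusted p 1.3e-06) and day 23 (2.27, adjusted p 3.3e-07). CD52 fell at day 16 (-6.72, adjusted p 0.00054). Among 13 ligand genes, upward calls numbered 5, 2 and 5 at days 16, 19 and 23 and downward calls 3, 4 and 1. Of the 8 phosphatases and adaptors 4 rose at day 16, 3 at day 19 and 4 at day 23, and 0 fell. PTPN6 passed at day 16 (0.57, adjusted p 0.020) and day 23 (0.87, adjusted p 0.00050). Of the 9 genes that promote engulfment 5 rose at day 16, 4 at day 19 and 5 at day 23, where 1 also fell, led by the scavenger receptor MSR1 (4.14 at day 16, adjusted p 4.7e-10). Among 13 other inhibitory receptors, upward calls numbered 5, 4 and 0 at these days and downward calls 2, 2 and 3. Of 7 kinases and activating adaptors 2 rose at day 16, 1 at day 19 and 2 at day 23. QPCT rose at days 16 (1.61, adjusted p 0.018) and 23 (1.83, adjusted p 0.0052), and QPCTL was not called.

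The 12 macrophage markers summed to 10409 to 12171 TPM at day 16, 7309 to 9170 TPM at day 19 and 4764 to 5083 TPM at day 23, against 3975 to 6338 TPM at day 12, with none at 0. Monocyte markers summed to 1198 to 1273, 1850 to 1906 and 4624 to 5099 TPM on these days, against 4528 to 6480 TPM at day 12. Erythroid markers summed to 0 to 2.14, 0.57 to 2.66 and 0.60 to 5.29 TPM, against 27.7 to 1719 TPM at day 12. The part of cell make-up in the members' values was not tested.

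**Figure D2:**
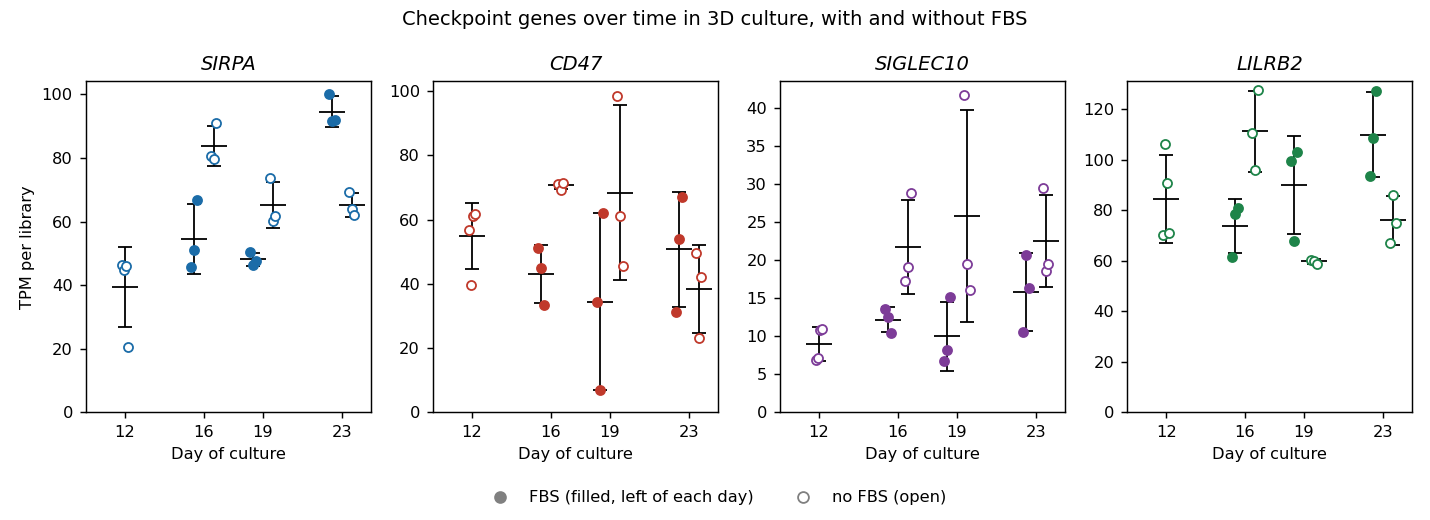
TPM per library of the 4 tested genes against the day of 3D culture; filled points left of each day are FBS libraries, open points are libraries without FBS, and bars give mean and SD (4 libraries at day 12, 3 elsewhere). SIRPA without FBS peaks at day 16 at a mean of 83.8 TPM, and with FBS it reaches 91.5 to 100.2 TPM at day 23.

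FBS was set against no FBS at days 16, 19 and 23, singly and on average. On average SIGLEC10 fell with FBS and the other 3 members did not pass: 0 of 4 rose and 1 fell, beside 34.3% of all genes called (18.6% up, 15.7% down). At single days 0 of 4 members passed, beside 18.1% of genes at day 16 (7.96% up, 10.1% down), 25.0% at day 19 (12.8% up, 12.2% down) and 13.7% at day 23 (8.87% up, 4.86% down).

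SIGLEC10 had 13.5, 12.6 and 10.4 TPM with FBS at day 16, against 17.3, 19.1 and 28.8 TPM without it. It had 6.69, 8.16 and 15.1 TPM with FBS at day 19, against 41.7, 19.5 and 16.03 TPM without it. At day 23 it had 10.5, 20.7 and 16.3 TPM with FBS, against 29.5, 18.6 and 19.4 TPM without it. The groups stood apart at days 16 and 19 and overlapped at day 23. The mean log2 change was -0.83 (SE 0.29, adjusted p 0.030). That call was lost at a pseudocount of 0.1 (adjusted p 0.20), without a filter on level (0.070) and without any one of 7 of the 18 libraries (0.051 to 0.073). These were replicate 3 of day 16, replicate 1 of day 19 and replicate 1 of day 23 without FBS, and replicate 3 of day 16, replicates 1 and 2 of day 19 and replicate 1 of day 23 with FBS.

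CD47 had 51.2, 44.9 and 33.4 TPM with FBS at day 16, 34.2, 7.09 and 62.1 TPM with FBS at day 19 and 31.4, 53.8 and 67.0 TPM with FBS at day 23. At day 16 every FBS library lay below every library without FBS; at days 19 and 23 the groups overlapped. The mean log2 change was -0.55 (95% interval -1.15 to 0.04, adjusted p 0.14). The change was -0.72 at day 16 (95% interval -1.75 to 0.31) and 0.40 at day 23 (-0.64 to 1.43). At day 19 it was -1.33 (adjusted p 0.053), and without the FBS library at 7.09 TPM it was -0.49 (adjusted p 0.40). Without the FBS library at 62.1 TPM it was -1.97 (adjusted p 0.0054), and the mean change then also passed (-0.76, adjusted p 0.025). Without the day 19 library at 45.5 TPM it was -1.59 (adjusted p 0.046).

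The estimates for SIRPA and LILRB2, like those for CD47, differed in sign between days, but none of these single-day changes passed in the main fit. SIRPA had 45.8, 51.0 and 66.8 TPM with FBS at day 16 and 50.4, 46.4 and 47.7 TPM with FBS at day 19, below every library without FBS on both days. At day 23 it had 100.2, 91.5 and 91.9 TPM with FBS, above every library without FBS. The log2 changes were -0.63, -0.43 and 0.53 (adjusted p 0.15, 0.31 and 0.26). LILRB2 had 61.4, 78.7 and 81.0 TPM with FBS at day 16, below every library without FBS. With FBS it had 99.4, 67.7 and 103 TPM at day 19 and 93.8, 109 and 127 TPM at day 23, above every library without FBS on both days. Its log2 changes were -0.59, 0.56 and 0.52 (adjusted p 0.10, 0.10 and 0.18). Without the FBS library of day 19 at 67.7 TPM the day 19 change was 0.75 (adjusted p 0.046). LILRB1 had 0, 2.09 and 0 TPM with FBS at day 16, 0 in all 3 FBS libraries of day 19 and 0.62, 2.32 and 1.04 TPM with FBS at day 23.

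The difference between the FBS effects was itself tested. Between day 23 and day 16, LILRB2 differed by 1.11 (SE 0.35, adjusted p 0.043), 1 of 4 members, beside 10.1% of all genes (7.00% up, 3.13% down). That call was lost with median-ratio scaling (0.79, adjusted p 0.096), with a replicate block (adjusted p 0.0502) and without any one of 9 of the 12 libraries (adjusted p 0.051 to 0.1102). Of the left-out libraries, replicate 2 of day 16, replicate 2 of day 23 and, with FBS, replicate 1 of day 23 did not end the call. SIRPA differed by 1.16 (95% interval 0.30 to 2.01, adjusted p 0.078), CD47 by 1.11 (-0.34 to 2.57) and SIGLEC10 by 0.26 (-1.22 to 1.74). Between day 19 and day 16, 0 of 4 passed, beside 0.411% of all genes (0.276% up, 0.134% down); LILRB2 differed by 1.15 (adjusted p 0.16).

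All 5 tested LILR genes, LILRB2 included, were called for a more positive FBS effect at day 23 than at day 16, beside 7.00% of all genes called in that direction. LILRB5 differed by 2.39 (adjusted p 0.00020), LILRA6 by 2.57 (adjusted p 0.00033), LILRA5 by 3.64 (adjusted p 0.018) and LILRB3 by 1.70 (adjusted p 0.025). LILRA6 and LILRB3 share near-identical sequence. Of 12 SIGLEC genes 6 differed upward, among them SIGLEC9 (3.17, adjusted p 5.1e-05) and SIGLEC11 (2.50, adjusted p 0.00010). Of 4 SIRP genes 0 passed. The upward shift was not confined to these families. Of 9 genes that promote engulfment 5 differed upward and 0 downward, and of 7 kinases and activating adaptors 3 and 0. Of 13 other inhibitory receptors 3 differed upward and 1 downward, and of 13 ligand genes 0 and 3. Of 8 phosphatases and adaptors and of the 2 pyroglutamate enzymes 0 passed.

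On average over the 3 days, LILRB5 averaged 145 to 217 TPM in the FBS groups and 12.7 to 80.3 TPM in the groups without FBS (log2 change 2.26, adjusted p 1.7e-10). It was the 1 LILR gene of 5 that was called. SIRPB1 fell (-0.97, adjusted p 0.00050) and SIRPB2 rose (0.76, adjusted p 0.022). Of 12 SIGLEC genes 3 rose and 5 fell. Of 13 other inhibitory receptors 6 rose and 0 fell, led by CD300A (1.44, adjusted p 5.6e-08). Of 13 ligand genes 5 rose and 1 fell, with THBS1, a secreted CD47 ligand, at 4.12 (adjusted p 1.3e-08). QPCT, which like QPCTL forms pyroglutamate, fell (-2.002, adjusted p 1.1e-05), and QPCTL was not called. PTPN6 rose (0.73, adjusted p 1.0e-05) and PTPN11 fell (-0.73, adjusted p 0.0033), the only fall among 8 phosphatases and adaptors, of which 3 rose. Of 7 kinases and adaptors 1 rose and 3 fell. Of 9 genes that promote engulfment 2 rose and 4 fell, with SLAMF7 at -4.27 (adjusted p 2.3e-11).

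The macrophage marker sums were 7351 to 10237, 7805 to 8757 and 6746 to 7139 TPM with FBS at days 16, 19 and 23, against 10409 to 12171, 7309 to 9170 and 4764 to 5083 TPM without it. The sums were thus lower with FBS at day 16, overlapping at day 19 and higher at day 23, as for SIRPA at days 16 and 23. Monocyte markers summed to 1010 to 1200, 918 to 1116 and 2010 to 2335 TPM with FBS on these days. Without FBS they summed to 1198 to 1273, 1850 to 1906 and 4624 to 5099 TPM. Their part was not tested.

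The SP14 and SP6A libraries were set against 3D day 12, which they share as reference with the days above. SIRPA rose in both and SIGLEC10 in SP14. The calls were 1 of 4 members for SP6A and 2 of 4 for SP14, all upward, beside 27.9% (17.1% up, 10.8% down) and 31.4% (18.4% up, 13.0% down) of all genes. Between SP14 and SP6A 0 of 4 members passed, beside 0.0299% of genes (0.0224% up, 0.00747% down), which is 4 genes.

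SIRPA had 157 and 134 TPM in SP14 and 116 and 133 TPM in SP6A, against 20.6 to 46.3 TPM at day 12. All 4 values are above every other library of the series. The log2 change was 1.92 for SP14 (SE 0.31, adjusted p 4.8e-05) and 1.70 for SP6A (SE 0.31, adjusted p 0.00023). SIGLEC10 had 35.0 and 36.4 TPM in SP14 and 25.1 and 25.4 TPM in SP6A, against 6.87 to 10.95 TPM at day 12. Neither group overlapped day 12. The log2 change was 1.91 for SP14 (SE 0.53, adjusted p 0.0085) and 1.43 for SP6A (adjusted p 0.0505). With either SP14 library left out, the SP14 call was lost (adjusted p 0.059 and 0.070), since 1 library then stood for the group.

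CD47 had 80.0 and 92.2 TPM in SP14 and 73.2 and 77.6 TPM in SP6A, against 39.7 to 61.6 TPM at day 12. The values stood above day 12, but the intervals of the log2 changes, -0.43 to 1.75 for SP14 and -0.62 to 1.57 for SP6A, held 0. LILRB2 had 126 and 112 TPM in SP14 and 99.9 and 105 TPM in SP6A, against 70.4 to 106 TPM at day 12. SP6A lay inside the day 12 range and SP14 above it, with log2 changes of 0.30 and 0.51 that did not pass. LILRB1 had 1.11 and 2.36 TPM in SP14 and 0.83 and 0.55 TPM in SP6A, against 0.39 to 0.64 TPM at day 12. Of LILRB4, without the filter on level, SP6A gave a call (log2 change 0.48, adjusted p 0.014) over a day 12 listed at 0.

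Here too LILRB5 rose further than any member, by 4.37 in SP14 and 4.36 in SP6A (adjusted p 1.1e-10 and 1.6e-10). LILRB3 and SIRPB2 rose in both, while LILRA5 fell in SP14 (-2.61, adjusted p 0.0081). Of 12 SIGLEC genes 4 rose and 4 fell in SP14, and 3 rose and 3 fell in SP6A. Of 13 other inhibitory receptors 8 rose and 1 fell in each, with PILRA at 936 TPM in SP14 and 926 TPM in SP6A, against 70.2 TPM at day 12. Of 13 ligand genes 7 rose and 2 fell in each. QPCTL rose in SP6A (1.83, adjusted p 0.0058), the 1 call of 2 enzymes there, and 0 of 2 passed in SP14. Of 8 phosphatases and adaptors 2 rose in SP14 and 3 in SP6A, of 7 kinases and adaptors 3 rose in each, and 0 of either list fell. Of 9 genes that promote engulfment 5 rose and 1 fell in each.
The macrophage markers summed to 13332 to 13568 TPM in SP14 and 12193 to 12353 TPM in SP6A, against 3975 to 6338 TPM at day 12. Monocyte markers summed to 1283 to 1332 TPM in SP14 and 1484 to 1559 TPM in SP6A, against 4528 to 6480 TPM at day 12. None was at 0, and the part of this in the member values was not tested.

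**Figure D3:**
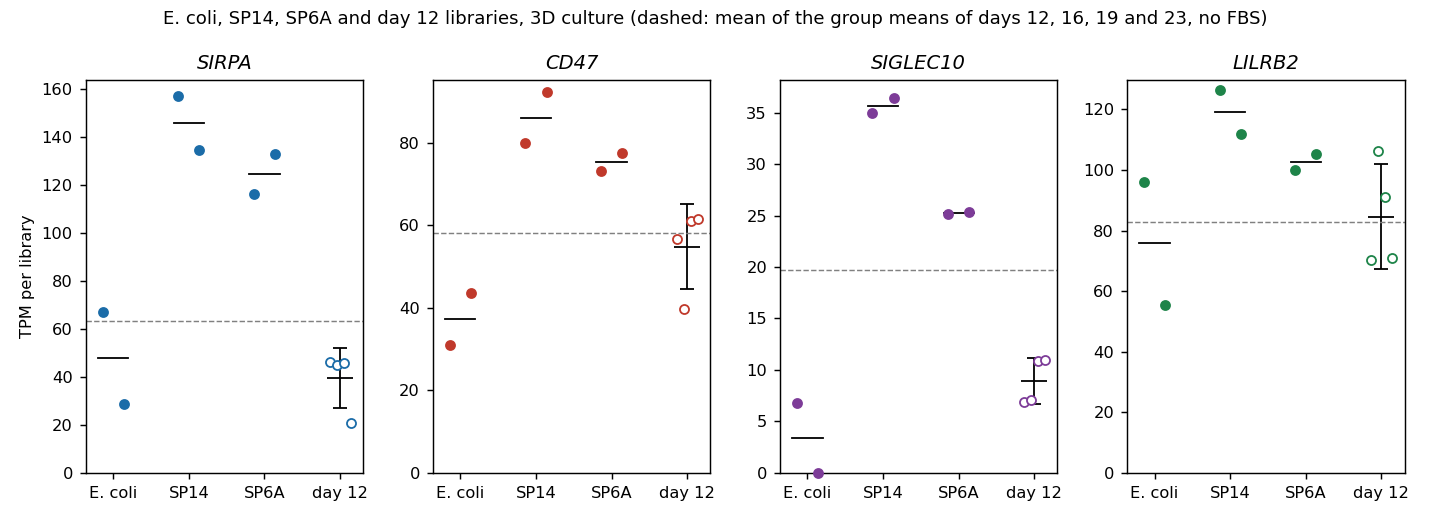
TPM per library of the 4 tested genes in E. coli, SP14 and SP6A (filled, 2 libraries each, line at the mean) and 3D day 12 (open, 4 libraries, mean and SD); the dashed line is the mean of the group means of days 12, 16, 19 and 23 without FBS. The SP14 and SP6A libraries of SIRPA lie between 116 and 157 TPM, and 1 E. coli library of SIGLEC10 lies at 0.

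Because the labels give the E. coli libraries no day, their reference was the average of the 4 FBS-free 3D groups, from day 12 to day 23. SIGLEC10 fell, and CD47, SIRPA and LILRB2 did not pass. This was 1 of 4 members, beside 56.6% of all genes called (13.7% up, 42.9% down). The median of all genes was -0.84, so each change is also given relative to it.

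SIGLEC10 had 6.81 and 0 TPM in the E. coli libraries, against 6.87 to 41.7 TPM in the 13 libraries of days 12 to 23 without FBS. Both values lie below that range. The log2 change was -2.74 (SE 0.47, adjusted p 4.2e-05), or -1.91 relative to the median gene. Its size depends on the library listed at 0: without it the change was -1.26 (adjusted p 0.017), and without the other library it was -4.23 (adjusted p 5.5e-08). At a pseudocount of 0.1 it was -4.41 (adjusted p 0.00010).

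CD47 had 30.9 and 43.5 TPM with E. coli, against 23.3 to 98.5 TPM in those 13 libraries. LILRB2 had 96.1 and 55.4 TPM with E. coli, against 58.8 to 128 TPM in the 13 libraries. SIRPA had 67.0 and 28.7 TPM with E. coli, against 20.6 to 91.0 TPM in the 13 libraries. All 3 genes overlapped between the groups. The 2 E. coli libraries thus differed by more than the change itself for SIRPA, and its log2 change of -0.45 (adjusted p 0.16) was -1.05 without the first library (adjusted p 0.0055) and 0.15 without the second. The change of CD47 was -0.57 (95% interval -1.53 to 0.39) and that of LILRB2 -0.14 (-0.61 to 0.34). Relative to the median gene they were 0.27 and 0.70, and SIRPA stood at 0.39. LILRB1 had 0 and 0.38 TPM with E. coli, and LILRB4 was listed at 0.

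Of 5 tested LILR genes 1 rose and 3 fell: LILRB5 rose (0.98, adjusted p 0.0015), and LILRA6 was listed at 0 in both libraries. Of 4 SIRP genes 0 rose and 2 fell, with SIRPB1 at -2.83 (adjusted p 1.3e-07). Of 12 SIGLEC genes 3 rose and 6 fell. Of 13 other inhibitory receptors 1 rose and 5 fell, with CD300A at -5.29 (adjusted p 3.6e-14). Of 13 ligand genes 5 rose and 3 fell, of 8 phosphatases and adaptors 3 rose and 1 fell, of 7 kinases and adaptors 1 rose and 3 fell, and of 9 genes that promote engulfment 3 rose and 4 fell. QPCT and QPCTL both fell (-1.94, adjusted p 0.0011, and -1.58, adjusted p 0.0030).
Macrophage markers summed to 3978 to 4089 TPM, against 3975 to 12171 TPM in the 13 libraries. The 9 mast cell, basophil or eosinophil markers summed to 1030 to 1822 TPM, against 0 to 860 TPM in the 13 libraries. KIT, TPSAB1 and TPSB2 were at 0 with E. coli. Erythroid markers summed to 0 TPM in 1 E. coli library and 3485 TPM in the other, against 0 to 1719 TPM in the 13 libraries. Their part was not tested.

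**Figure D4:**
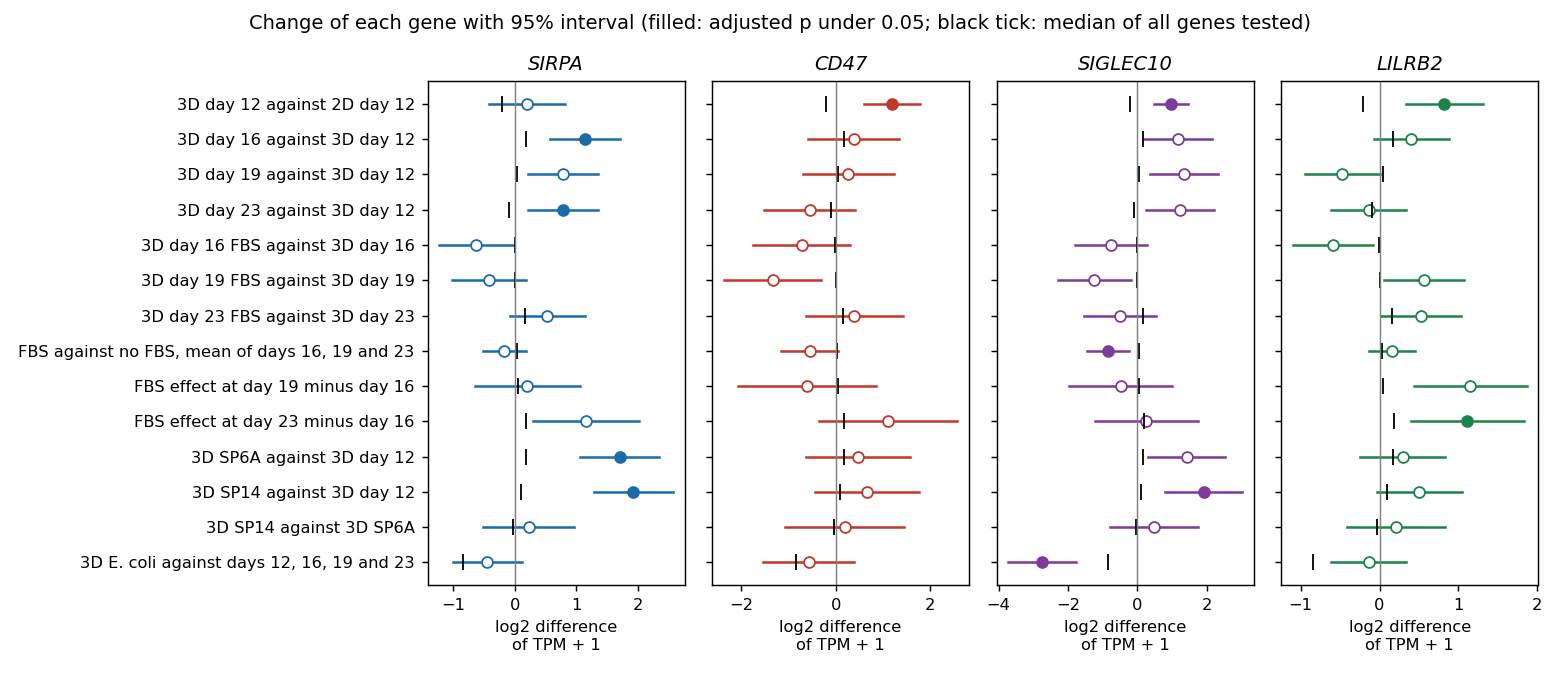
Log2 change of TPM plus 1 with its 95% interval for the 4 tested genes (panels) in the 14 comparisons (rows); filled points have a limma adjusted p under 0.05 and the black tick is the median of all genes tested. In the top row the CD47, SIGLEC10 and LILRB2 intervals lie above 0, in the bottom row the SIGLEC10 interval lies below 0.

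Over the 11 group means the members were positively correlated, as a description only, since the groups come from 1 table scaled together. Pearson's r was 0.80 between SIRPA and SIGLEC10, 0.77 between SIRPA and CD47, 0.76 between SIRPA and LILRB2, 0.71 between CD47 and SIGLEC10, 0.62 between CD47 and LILRB2 and 0.55 between SIGLEC10 and LILRB2. Among 8892 genes with a group mean of at least 10 TPM, the pattern most like that of SIGLEC10 was SLAMF8 (r = 0.99), followed by CYB561A3 (0.97) and ATP6V1A (0.96). For CD47 these were COMMD10 (0.98), SNX2 (0.97) and SH3GLB1 (0.96). For SIRPA they were ATP6AP1, GPNMB and SPATA13 (all 0.95), and for LILRB2 MAGT1 (0.87), TMED5 (0.86) and FTH1P20 (0.85).

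Single-cell RNA from 3D culture at days 7, 9 and 12 showed which cells held these transcripts. There was 1 library a day, so no test of days or of cell classes was possible, and intervals cover counting error of unique molecular identifiers (UMIs) only. The libraries kept 6551, 11292 and 7592 cells, with medians of 24179, 13032 and 16617 UMIs a cell, and shared 17 to 24 barcodes pairwise. Clusters were formed without the SIRP, LILR and SIGLEC genes and CD47, and named from fixed markers: 9 classes over 11 of the 18 clusters.
All 12 macrophage markers were raised in both clusters of the macrophage-like class, which held 2114 cells at day 12. Chemokine genes such as CCL3 and CCL4 led cluster 6, and KCNK13, CD163L1 and MRC1 were among the leading genes of cluster 9. At days 7 and 9 there were fewer than 50 macrophage-like cells, and no level is given for them.

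CD47 was found in every class, at levels that spread over more than an order of magnitude. At day 12 it reached 562 CPM (95% interval 537 to 588), that is UMIs of the gene per 1000000 UMIs of the class, in megakaryocyte-like cells, the platelet-forming line. It was 156 (146 to 167) in mast cell, basophil or eosinophil-like cells, a cluster led by CLC and EPX, 134 (125 to 144) in endothelial-like cells, 104 (102 to 107) in macrophage-like cells and 95.05 (88.6 to 102) in granulocyte progenitor-like cells. The lowest at day 12 were 36.6 (31.0 to 42.9) in erythroid-like, 36.0 (28.4 to 45.1) in cardiac or smooth muscle mesoderm-like and 26.2 (24.8 to 27.6) in fibroblast or mesenchyme-like cells. Hepatic or yolk sac endoderm-like cells, seen at days 7 and 9, had 14.4 and 16.2 CPM. Macrophage-like cells thus held CD47 at 3.98 times the level of fibroblast or mesenchyme-like cells and at 0.185 times that of megakaryocyte-like cells.

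Over the days the megakaryocyte-like cells had 162 (158 to 166), 435 (426 to 443) and 562 (537 to 588) CD47 CPM at days 7, 9 and 12. This class held 44.6%, 53.6% and 14.3% of all CD47 UMIs of its library, from 20.3%, 15.6% and 3.54% of the cells. The class is made of 2 clusters, and cluster 4 alone had 168, 437 and 593 CPM at days 7, 9 and 12. Cluster 11, led by platelet genes such as PPBP and PF4, held 217 of the 269 megakaryocyte-like cells of day 12, with 548 CPM. Erythroid-like cells had 122, 125 and 36.6 CPM on the 3 days, endothelial-like cells 63.8, 63.3 and 134. With 1 library a day, day and library cannot be told apart.

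Thinned to 3000 UMIs a cell, 62.9% of megakaryocyte-like, 26.7% of macrophage-like, 23.9% of granulocyte progenitor-like and 7.03% of fibroblast or mesenchyme-like cells of day 12 had a CD47 UMI. Unthinned these shares were 82.2%, 87.2%, 71.5% and 27.6%, at median depths of 10031, 29888, 15703 and 13272 UMIs. The thinned shares kept the order of the levels. At day 12 the thinning left out 32, 20, 10 and 59 cells of these classes.

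SIRPA was concentrated in the white cell classes. At day 12 it had 142 CPM (140 to 145) in macrophage-like cells, against 17.1 in all other cells together. Granulocyte progenitor-like cells had 72.0 (66.4 to 78.0) and mast cell, basophil or eosinophil-like cells 46.7 (41.2 to 52.7). The remaining classes lay between 2.42 in erythroid-like and 11.5 in megakaryocyte-like cells. Macrophage-like cells made up 27.8% of the cells and 42.4% of the UMIs of day 12, and held 86.0% (85.3 to 86.7%) of the SIRPA UMIs. Over all cells SIRPA stood at 6.86, 11.8 and 70.3 CPM at days 7, 9 and 12.

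An unnamed cluster, cluster 10, led by CD3D, RUNX3 and MPZL2, also held SIRPA. It had 16.7, 75.8 and 71.8 CPM in its 162, 335 and 60 cells of days 7, 9 and 12. SIGLEC10 in the same cluster had 24.9, 16.04 and 12.9 CPM. LILRB2 there had 0.562 (3 UMIs), 7.19 and 29.5 CPM.

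LILRB2 was the most restricted of the receptors with ample counts. Of its 9175 UMIs at day 12, 94.8% (94.4 to 95.3%) lay in macrophage-like cells, at 131 CPM (128 to 134) against 5.27 in all other cells. Granulocyte progenitor-like cells had 25.2 (21.9 to 28.8). At days 7 and 9 the whole libraries held 23 and 131 LILRB2 UMIs. A UMI of LILRB2 was seen in 81.6% of macrophage-like cells, against 3.20% of fibroblast or mesenchyme-like cells, a class not known to use the gene. The granulocyte progenitor-like share of 25.9% was above that level, and so was the thinned one (9.43% against 0.835%).

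SIGLEC10 had another spread. At day 12 mast cell, basophil or eosinophil-like cells held 41.0 CPM (35.9 to 46.6), above the 14.1 (13.2 to 15.1) of macrophage-like cells and the 6.44 (4.84 to 8.40) of granulocyte progenitor-like cells. Fibroblast or mesenchyme-like cells had 0.487, and in the 304 endothelial-like cells of day 12 no UMI was seen, which allows up to 0.549 CPM. Megakaryocyte-like cells had 13.96, 15.3 and 5.61 CPM at days 7, 9 and 12. Cluster 4 of that class had 14.4, 15.6 and 15.01 CPM on these days, and cluster 11, which held most of the class at day 12, had 8.43, 2.06 (1 UMI) and 1.29 (3 UMIs). At day 7 they held 70.4% of the 763 SIGLEC10 UMIs of the library. At day 12 macrophage-like cells held 72.0% of 1301.

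LILRB1 was rare and LILRB4 close to absent from the counts. LILRB1 had 1, 4 and 296 UMIs in the libraries of days 7, 9 and 12, and 283 of the 296 lay in macrophage-like cells, at 4.27 CPM (3.78 to 4.79). LILRB4 had 1, 0 and 4 UMIs, and all 4 of day 12 lay in macrophage-like cells. At this depth that is 0.0603 CPM (0.0164 to 0.154).

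**Figure D5:**
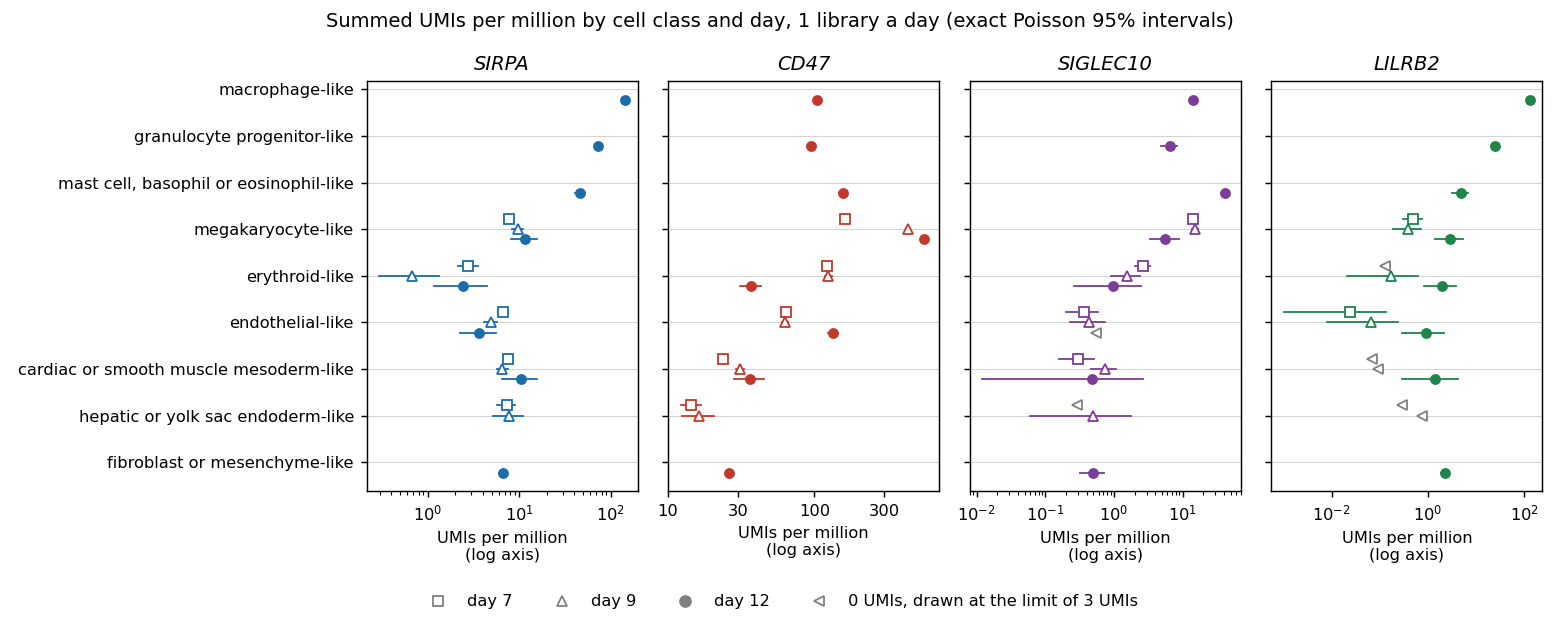
CPM (log axis) of SIRPA, CD47, SIGLEC10 and LILRB2 in the 9 named cell classes at days 7, 9 and 12 of 3D culture, 1 library a day, with exact Poisson 95% intervals; class-days under 50 cells are left out and left-pointing triangles mark 0 UMIs at the limit of 3 UMIs. CD47 is highest in megakaryocyte-like cells, SIRPA and LILRB2 in macrophage-like cells and SIGLEC10 in mast cell, basophil or eosinophil-like cells.

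Both macrophage-like clusters held the 4 main members at day 12. Cluster 6, with 1479 cells, had more SIRPA than cluster 9, with 635 cells: 155 (151 to 158) against 117 (112 to 121) CPM. It had less CD47 (97.1, 94.2 to 99.997, against 119, 114 to 124) and less LILRB2 (122, 119 to 125, against 150.5, 145 to 156). SIGLEC10 had 13.9 in cluster 6 and 14.6 in cluster 9, with overlapping intervals. These are 2 clusters of 1 library, so the intervals hold counting error only.

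The wider family in macrophage-like cells of day 12 showed LILRA5 at 62.6 CPM against 4.40 in other cells, LILRB5 at 10.4 against 0.222 and SIGLEC9 at 65.1 against 3.80. The inhibitory receptors VSIG4 (265 against 6.78), LAIR1 (127 against 18.6) and HAVCR2 (106 against 9.70) were likewise higher in macrophage-like cells. The SIGLEC10 ligand CD24 lay mostly outside them, at 6.84 against 201 CPM. The HLA class I light chain B2M had 1643 CPM in macrophage-like and 744 in other cells. The phosphatase PTPN6 had 120 (117 to 122) against 37.1, and PTPN11 66.2 (64.3 to 68.2) against 61.8.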

How the data were processed

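Bulk RNA from TRIzol went through SMART-seq2 and single cells through the 10X system, per the labels' protocols. The authors deposited 1 table of TPM for the bulk libraries, with 0 columns left unmapped and 0 identical pairs of libraries, and matrices of UMI counts, made with Cell Ranger 7.1.0 (days 7 and 9) and 7.0.0 (day 12) per the file headers. The submitters' processing notes name Trim Galore 0.4.4, HISAT2 and HTSeq 0.11.1 among the series' tools, with builds hg38 and GRCh38. No source used here says which of them made the TPM or gives read totals.

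TPM were taken as log2(TPM + 1), genes with a mean of at least 1 TPM were kept, and limma 3.58.1 in R 4.3.3 was fitted to the 8 day 12 libraries of 3D and 2D (13131 genes) and to the 28 libraries of 3D (13384 genes). All p-values are two-sided and adjusted by Benjamini-Hochberg over the genes of a fit. The fits were tested on simulated data.

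Cells with at least 1000 UMIs, 500 genes and at most 15% mitochondrial UMIs were kept, and Scrublet marked 216, 435 and 369 doublets at days 7, 9 and 12, which were removed. Clustering used scanpy 1.11.5 (2000 variable genes, 30 components, 15 neighbours, Leiden resolution 0.5). A cluster of at least 50 cells was named when at least 5 markers of a type reached 20 CPM and 2 times the level of all other cells. These had to be the majority of the type's markers at 20 CPM. No other type could have more markers among the cluster's 10 leading genes. A type with no marker among those 10 genes was used only if all its markers were raised. Intervals are exact at 95%, a count of 0 is given the limit of 3 UMIs, and all cover counting error only.

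The members, gene lists, markers and tests were chosen with earlier results of these data known. The text names the 6 members in every comparison, up to 4 called genes of lowest adjusted p for each list, and the 3 genes most like each member. Start windows are RefSeq's on GRCh38.p14, and alignments scored 1 for a match, -1 for a mismatch and -2 for a gap. Alternatives were a pseudocount of 0.1, no filter, median-ratio scaling, a replicate block, a fit without the E. coli libraries, each library left out, doublets kept, a minimum of 2000 UMIs and thinning to 3000 UMIs. TPM rescaled without 3 clone-named genes were added after the data were seen. Some genes of the lists and marker sets are counted but not reported by name here.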

Additional observations from a re-analysis of the deposited data

Results flagged for a closer look

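SIRPA in 3D day 12 had 1 library, replicate 4, far below the other 3: 20.6 TPM, against 44.9 to 46.3 TPM. The gap made up 0.946 of the group's range, above Dixon's limit of 0.829 for 4 libraries. It was the 1 case among 10 gene and group pairs tested, where chance gives about 1 in 20. CD47, SIGLEC10 and LILRB2 in the same library were 61.6, 10.95 and 70.9 TPM, within the range of the group or at its top.

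The FBS effect on LILRB2 differed between days, with the change at day 23 exceeding that at day 16 by 1.11 on the log2 scale (limma adjusted p 0.043). That call was lost in 13 of 18 alternatives, among them the replicate block, median-ratio scaling, a pseudocount of 0.1 and 9 of the 12 left-out libraries. It was 0.52 at day 23, with all 3 FBS libraries above all 3 without FBS, and -0.59 at day 16, with all 3 below.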

How the results depend on the processing

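Under 808 alternatives for the members' changes, 751 stayed on their side of the threshold, 27 gained a call and 30 lost one, and 0 called changes took the other sign. Changes without a call could take it: SIRPA with E. coli (-1.05 to 0.15), CD47 at day 19 (-0.03 to 0.52), LILRB2 at day 23 (-0.23 to 0.04), in SP6A and with E. coli, and the FBS effect differences of CD47 (day 19) and SIGLEC10 (day 23). Of 405 called changes of list genes, median-ratio scaling kept 368 and rescaling without the clone-named genes kept 393, with 0 reversed.

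Leaving the E. coli libraries out of the fit gave more calls over all genes: 3435 at day 16 against day 12, 2567 at day 19, 3672 for FBS at day 16, 2973 for FBS at day 23, 242 for the FBS effect of day 19 minus day 16 and 2520 for that of day 23 minus day 16, against 2219, 1575, 2417, 1838, 55 and 1356. It also added 11 member calls and lost 0. These were SIGLEC10 at days 16, 19 and 23, in SP6A and with FBS at day 19, SIRPA at day 19, LILRB2 with FBS at days 16 and 19, CD47 with FBS at day 19, and the FBS effect differences of LILRB2 (day 19) and SIRPA (day 23). The cause was not tested. The difference of day 19 minus day 16 had 35 calls at a pseudocount of 0.1, 125 without a filter and 89 with TPM rescaled without clone-named genes. Without a filter SP6A had 6468 calls and SP14 against SP6A 544, against 3736 and 4. SIGLEC10 in SP14 was not called at a pseudocount of 0.1 (adjusted p 0.12), and the LILRB2 difference of day 23 minus day 16 was lost there (adjusted p 0.056) and with rescaled TPM (adjusted p 0.060). Rescaled TPM added calls for SIRPA at day 19, SIGLEC10 at days 19 and 23 and in SP6A, and LILRB2 with FBS at day 19.

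Leaving out 1 library at a time gave 4012 to 4580 calls for 3D against 2D, 1500 to 1899 for day 16, 1116 to 1366 for day 19, 2616 to 3031 for day 23, 1510 to 1963, 2347 to 2928 and 1299 to 1410 for FBS at days 16, 19 and 23, 4230 to 4473 for FBS on average, 16 to 56 for day 19 minus day 16 and 997 to 1250 for day 23 minus day 16. It gave 2568 to 3920 for SP14, 2003 to 3438 for SP6A, 4 to 8 between them and 7426 to 7900 for E. coli.

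Median-ratio scaling changed the split of calls into higher and lower by over 10 points. At day 16 it gave 765 higher and 1422 lower, against 1382 and 837, and moved the median of all genes to -0.08, against 0.18. At day 19 it gave 672 and 1109, against 853 and 722, for FBS at day 23 868 and 881, against 1187 and 651, and for day 23 minus day 16 649 and 647, against 937 and 419. For day 19 minus day 16 it gave 30 and 24, against 37 and 18, for SP14 1822 and 2375, against 2457 and 1744, and for SP6A 1621 and 2116, against 2290 and 1446. It added calls for LILRB2 at day 19 (-0.67, adjusted p 0.025), SIGLEC10 at day 23, and CD47 and LILRB2 with FBS at day 19.

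Replicate numbers are shared between groups, but same-numbered libraries did not deviate together (correlations of -0.122 to 0.039). With few libraries a group, these correlations cannot decide whether same-numbered libraries shared a culture or batch. With the replicate number as a block, 4110 genes were called for 3D against 2D and 4470 for FBS on average. SIRPA at day 23 lost its call (0.50, adjusted p 0.15) and the SIRPA difference of day 23 minus day 16 gained one (adjusted p 0.036).

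In macrophage-like cells of day 12, keeping doublets gave 138 CPM for SIRPA and 127 for LILRB2. Thinned to 3000 UMIs a cell the levels were 139 for SIRPA, 109 for CD47, 15.3 for SIGLEC10, 3.34 for LILRB1 and 0.159 for LILRB4. TPM keep no depth, so no counting error can be given for the bulk values. Groups of 2 libraries and 1 single-cell library a day limit every statement on SP6A, SP14, E. coli and time.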
